A study of Mus musculus with 10 samples.

Results

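The antiviral interferon-stimulated genes are a set of 36 genes, chosen by name, that interferons are known to induce and whose products sense or block viruses. The choice was made with earlier results of these data known. Each gene was followed through the probe set that carried its symbol alone and was the brightest such probe set. That was possible for 35 genes, and *Dtx3l* was followed on a probe set that it shares with *Parp9*. All 36 genes were found among the 25649 genes with a probe set, and all 36 passed the filter on low values that left 11179 genes for testing. The cells were CD117+ splenocytes, taken by positive selection on the KIT receptor and described in the study as rich in dendritic cells (DCs), from male C57BL/6 mice aged 9 to 12 weeks. The RasGRP4-null mice carry a disrupted gene for RasGRP4, a guanine nucleotide exchange factor of hematopoietic cells, made by homologous recombination, and the WT mice carry the intact gene. Cells from 5 mice of each genotype were either untreated (0 h) or exposed to 1 µg/mL lipopolysaccharide (LPS), a component of the outer membrane of Gram-negative bacteria, for 12, 24, 36 or 48 h. One MoGene-2.0-st array was run for each genotype and time, giving 10 arrays with no replicate of any condition. Since the cells of a genotype were aliquoted, its arrays may be parts of 1 preparation. A p-value here judges a change against the scatter of the genotypes around 1 common time course. No cells were cultured without LPS for 12 to 48 h among these arrays, so that a change with LPS and a change with time in culture cannot be told apart. The values are PLIER intensities, a linear probe set summary of background-corrected perfect-match probes.

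LPS is sensed by Toll-like receptor 4 (TLR4), whose adaptor TRIF (encoded by *Ticam1*) activates TBK1 and the transcription factor IRF3, and the interferon-β that is made acts on the same and on nearby cells. The type I interferon receptor signals through the kinases JAK1 and TYK2 to transcription factors, STAT2 and IRF9 among them, that bind the interferon-stimulated response element (ISRE) in the promoters of these genes. The response to interferon-γ is known to act mainly at another element, the gamma-activated site (GAS). The products then recognise foreign RNA, degrade it, block its translation, hold the virus at membranes or tune the response itself.

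Of the 36 genes, 27 had a promoter window (250 bases before to 50 bases after the annotated start of transcription) in the RefSeq table for GRCm38.p6. The ISRE core, written GAAANNGAAA, was searched on both strands. It was found in a window of 12 of the 27 genes (44.4%) and of 1079 of all 27025 genes in that table (3.99%). The GAS pattern, TTCNNNGAA, reads the same on both strands and was found for 7 of the 27 genes (25.9%) and for 9.55% of all genes. In *Ifitm3* the 2 patterns overlapped. The sequences below are shown because the text returns to these genes, which differed widely in their course after LPS. Capitals mark the ISRE cores, each sequence runs 5′ to 3′ on the strand of its gene, and a core on the other strand reads TTTCNNTTTC.
Ifit1: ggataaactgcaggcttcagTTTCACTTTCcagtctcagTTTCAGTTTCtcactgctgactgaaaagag
Ifit3: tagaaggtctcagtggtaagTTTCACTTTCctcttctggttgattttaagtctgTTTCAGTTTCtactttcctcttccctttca
Isg15: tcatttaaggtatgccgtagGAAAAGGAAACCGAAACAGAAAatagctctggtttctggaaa
Oas1a: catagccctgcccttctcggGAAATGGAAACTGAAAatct
Oas3: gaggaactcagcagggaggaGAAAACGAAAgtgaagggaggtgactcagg
Ddx60: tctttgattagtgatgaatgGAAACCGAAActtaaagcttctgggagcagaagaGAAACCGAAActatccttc
Ifitm3: gGAAAAGGAAActtctgaGAAACCGAAAct
Ddx58: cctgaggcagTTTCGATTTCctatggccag
The *Ifit1* sequence lies at chr19:34640765-34640833, plus strand, bases −124 to −56 from the start of transcription. The *Ifit3* sequence lies at chr19:34583353-34583436, plus strand, bases −176 to −93. Both of these neighbours on chromosome 19 held 2 cores upstream of the start. The *Isg15* sequence (chr4:156200855-156200916, minus strand, bases −98 to −37) held 3 overlapping cores, and that of *Oas1a* (chr5:120907526-120907565, minus strand, bases −40 to −1) held 2. *Oas3* had 1 core (chr5:120777705-120777754, minus strand, bases −95 to −46) and *Ddx60* had 2 (chr8:61928014-61928086, plus strand, bases −73 to −1). The cores of *Ifitm3* (chr7:141010714-141010743, minus strand, bases 2 to 31) and *Ddx58* (chr4:40239804-40239833, minus strand, bases −8 to 22) lay just downstream of the annotated start. The other genes with a core were *Eif2ak2*, *Ifih1*, *Rsad2* and *Trim30a*. *Ifi44* and *Oasl1*, which had the highest estimates after LPS, held no core in these windows, which says only that these letters are not there. *Parp14*, *Usp18*, *Oas2*, *Dhx58*, *Parp9*, *Rtp4*, *Mx2*, *Zbp1* and *Mx1* had no window in the table. The median LPS change, defined below, was 1.87 for the 12 genes with a core and 1.97 for the 15 without.

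The background of each array, taken as the 95th percentile of 1089 probe sets for olfactory receptors, was 29.1 to 38.5. *Rasgrp4*, the gene lost in the RasGRP4-null mice, gave 16.7, 23.7, 23.8, 24.5 and 25.5 in RasGRP4-null cells at 0, 12, 24, 36 and 48 h, against 86.4, 25.4, 20.6, 23.9 and 23.2 in WT cells, so that it was above background on the untreated WT array alone. *Kit*, which encodes CD117, was above background on all 10 arrays, at 183 to 334 in RasGRP4-null cells and 133 to 292 in WT cells. The 3 DC markers did not move alike. *Itgax* (CD11c) was 485 at 0 h and 38.2 to 56.2 with LPS in RasGRP4-null cells, against 522 and 19.5 to 38.0 in WT cells. *Flt3* was 325 at 0 h and 179.6 to 251 with LPS in RasGRP4-null cells, against 356 and 125 to 243 in WT cells, and *Zbtb46* was 61.7 at 0 h and 93.0 to 160.4 with LPS in RasGRP4-null cells, against 66.9 and 74.9 to 135 in WT cells. On the log2 scale *Itgax* (−3.31 ± 0.14, adjusted p = 6.80e-09) and *Flt3* (−0.75 ± 0.17, adjusted p = 0.00254) fell with LPS in limma, and *Zbtb46* (0.62 ± 0.18, adjusted p = 0.0103) rose, although it was −0.29 on GAPDH-normalized values. The 3 summed to 872 at 0 h and 325 to 449.7 with LPS in RasGRP4-null cells, against 946 and 241 to 417 in WT cells. The arrays also held transcripts of other cells, and their mixture differed between the untreated and the LPS arrays. For some cell types the marker sums also differed between the genotypes. The 5 of 6 listed macrophage markers with a probe set summed to 14282 at 0 h and 165 to 273 with LPS in RasGRP4-null cells, against 12864 and 170.4 to 223 in WT cells. The 4 neutrophil markers summed to 4363 at 0 h and 57.9 to 392 with LPS in RasGRP4-null cells, against 7282 and 62.5 to 695 in WT cells. The 5 B cell markers summed to 4160.0 at 0 h and 2815 to 5949 with LPS in RasGRP4-null cells, against 4600.4 and 4359 to 6593 in WT cells. The 3 plasmacytoid DC markers summed to 316 at 0 h and 551 to 708 with LPS in RasGRP4-null cells. In WT cells these sums were 381 and 496 to 648. The 3 plasma cell markers summed to 982 and 1403 to 2502 in RasGRP4-null cells, against 680 and 990 to 1282 in WT cells. For the 3 erythroid markers the sums were 5146 and 467 to 1643, against 2520 and 451 to 1278. The T, NK and mast cell markers summed to at most 365, 358 and 848 on any array. In such mixed cells, fewer cells of a type and less RNA per cell cannot be told apart, and the part of these shifts in the results was not tested.

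After LPS the antiviral genes rose almost as a whole in both genotypes. Of the 36 genes, 34 were higher with LPS (mean of 12, 24, 36 and 48 h minus 0 h, limma on log2(PLIER + 16), adjusted p under 0.05), 1 was lower (*Epsti1*) and 1 did not pass the test (*Ifit3*). Among all 11179 genes tested, 48.2% were higher and 21.5% were lower. The median change of the 36 genes was 1.996 on this log2 scale, against 0.26 for all genes tested, and was the same with the 9 genes whose untreated arrays were both below background set at their lower bounds (the mean log2 LPS intensity minus that of the array backgrounds). These bounds, and the folds given below as at least a value, hold only on the intensities without GAPDH scaling. The filter asked for an intensity of 50 on any 2 arrays, so that LPS arrays alone could meet it. *Ddx60*, *Oas1a*, *Oas3*, *Oasl1*, *Ifit1*, *Ifit2*, *Mx1*, *Mx2*, *Trim30a* and *Ifi44* were under 50 on both untreated arrays. These genes passed through their LPS arrays alone and are among the 34 called higher. The 48.2% of all genes rests on the same filter. On 33 genes every one of the 8 LPS arrays was above both untreated arrays. No share of all genes is given beside this count, so it is not read as a trait of these genes. The 48.2% above is a share of limma calls and does not measure this separation. *Epsti1* was below the untreated array of its genotype at all 4 times in both. By role, the median change was 3.09 for the OAS family, 2.36 for ISG15 and the ubiquitin and ADP-ribose enzymes, 1.87 for the IFIT family, 1.53 for the remaining genes, 1.51 for the sensors and 1.19 for the direct effectors. The scale of the arrays bears on these counts. *Gapdh*, to which the authors scaled their second table, was itself dimmer on the untreated arrays, and the factors deposited for it were 2.41 (RasGRP4-null) and 2.24 (WT) at 0 h and 1.00 to 1.31 on the LPS arrays. On GAPDH-normalized values the median of all genes was −0.70, 8.55% of all genes were higher and 69.1% were lower. On that scale 24 of the 36 genes were still higher, *Ifit3*, *Ifitm3*, *Samd9l* and *Epsti1* were lower, and 8 did not pass (*Ddx58*, *Ifih1*, *Ddx60*, *Rsad2*, *Isg20*, *Adar*, *Ifi35* and *Sp100*, the last with a negative estimate). Against the median of all genes, 35 of the 36 stood higher on both scales and under quantile normalization.

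**Figure D1:**
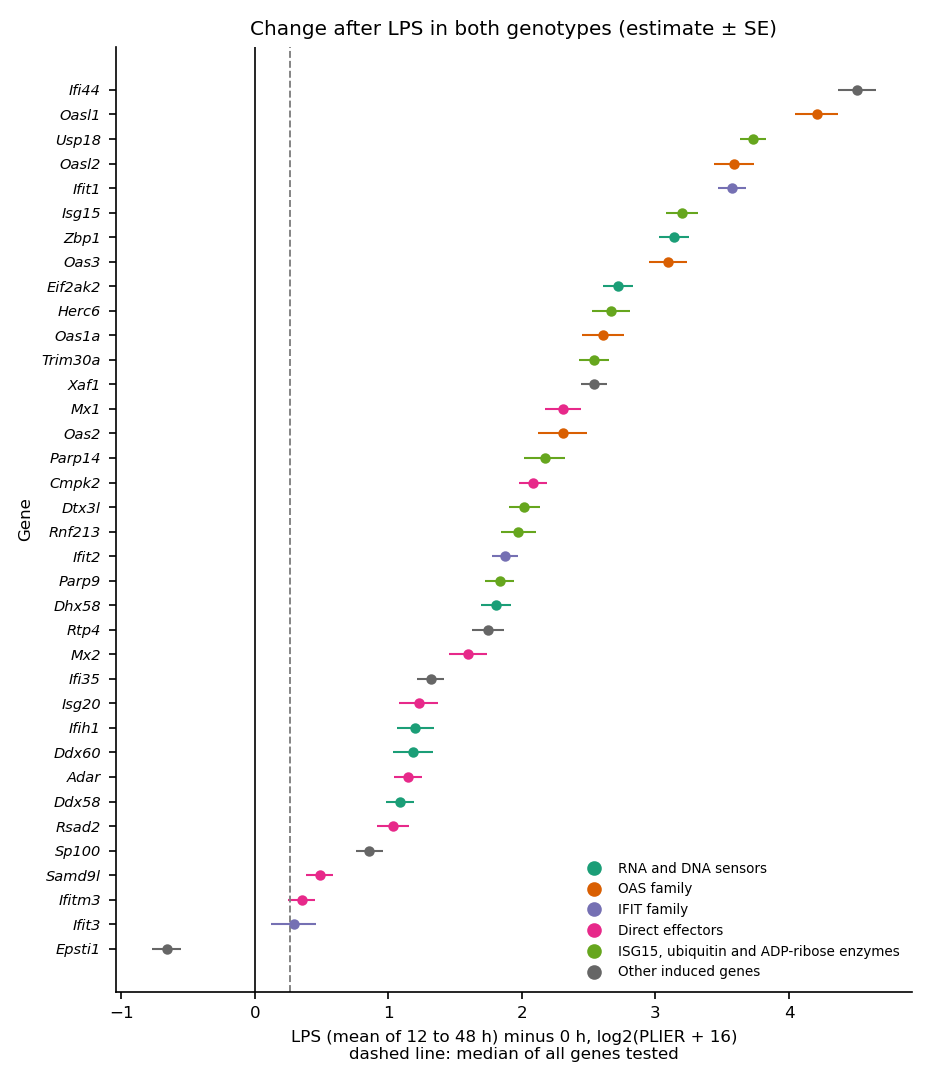
The change of each of the 36 genes after LPS (mean of 12, 24, 36 and 48 h minus 0 h, both genotypes, log2(PLIER + 16), x axis) with its SE, coloured by role. The dashed line at 0.26 is the median of all 11179 genes tested. *Ifi44* lies highest at 4.51 and *Epsti1* alone lies below 0, at −0.66 (on GAPDH-normalized values 5 genes lay below 0).

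Sensors of viral nucleic acids rose in all 6 cases, although *Ddx58*, *Ifih1* and *Ddx60* did not pass on GAPDH-normalized values. *Zbp1*, which encodes a sensor of Z-form nucleic acids, changed most. Over 0, 12, 24, 36 and 48 h *Zbp1* gave 159, 1554, 1235, 1335 and 1269 in RasGRP4-null cells, against 126, 1492, 1302, 1463 and 1360.4 in WT cells. The 8 LPS arrays were 7.79 to 11.8 times the untreated array of their genotype. Its LPS change was 3.14 ± 0.11 (SE, adjusted p = 1.75e-09). *Ddx58*, which encodes the RNA sensor RIG-I, had the lowest estimate of the 6. In the same order of times *Ddx58* gave 239.9, 601, 509, 587 and 548 in RasGRP4-null cells, against 236, 489, 415, 551 and 516 in WT cells. The untreated arrays were lowest, and the LPS arrays lay between 415 and 601 with no steady course. Its change was 1.09 ± 0.10 (adjusted p = 4.32e-06), which was lost on GAPDH-normalized values (0.07 ± 0.15). The change was 2.72 ± 0.11 for *Eif2ak2*, whose product is the kinase PKR that stops translation on double-stranded RNA. *Dhx58* (LGP2, a partner of RIG-I and MDA5) changed by 1.81 ± 0.11, *Ifih1* (MDA5) by 1.20 ± 0.14 and *Ddx60*, a helicase, by 1.18 ± 0.15. *Ddx60* was not above background on either untreated array, so that its rise on these intensities was at least 2.39-fold. On GAPDH-normalized values the change of *Ddx60* was 0.44 ± 0.19 and did not pass.

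Enzymes of the OAS family make 2′-5′ oligoadenylates that switch on RNase L, although not every member of the family has this activity. All 5 members rose. *Oasl1*, an OAS-like gene, had the highest estimate of the 5. At 0, 12, 24, 36 and 48 h *Oasl1* gave 22.2, 1322, 708, 596 and 603 in RasGRP4-null cells, against 30.6, 1043, 544, 811 and 734 in WT cells. It was below background untreated in both genotypes and highest at 12 h in both. Its LPS change was 4.21 ± 0.16 (adjusted p = 2.99e-09), a rise of at least 22.0-fold. *Oas2* had the lowest estimate in this family. In the same order *Oas2* gave 25.1, 277, 272, 296 and 229 in RasGRP4-null cells, against 53.0, 263, 193, 265 and 202 in WT cells. The untreated WT array was above its background and the untreated RasGRP4-null array was not. Its LPS change was 2.30 ± 0.18 (adjusted p = 9.11e-07). *Oas1a* gave 6.87, 253, 162, 135 and 118 in RasGRP4-null cells, against 16.3, 187, 123, 145 and 113 in WT cells. Both untreated arrays were below background and both genotypes were highest at 12 h. Its change was 2.61 ± 0.16, or at least 4.30-fold, a bound that leaves its order against *Oas2* unsettled. *Oasl2* changed by 3.59 ± 0.15 and *Oas3* by 3.09 ± 0.14, the last from below background and by at least 10.1-fold.

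The IFIT proteins bind viral RNA, in part by its 5′ end, and block its translation. Their 3 genes sit close together on chromosome 19, and *Ifit1* and *Ifit2* rose whereas *Ifit3* did not pass the test (and was lower on GAPDH-normalized values, at −0.61). At 0, 12, 24, 36 and 48 h *Ifit1* gave 23.9, 900.2, 498, 307 and 301 in RasGRP4-null cells, against 18.8, 827, 389.9, 301 and 275 in WT cells. *Ifit1* was at background untreated, peaked at 12 h in both genotypes and was then lower at each later time. Its LPS change was 3.58 ± 0.10 (adjusted p = 3.34e-10), a rise of at least 12.3-fold. *Ifit2* gave 19.7, 199, 119, 91.7 and 66.7 in RasGRP4-null cells, against 19.5, 216, 121, 97.3 and 74.7 in WT cells. The course was that of *Ifit1*, with the peak at 12 h in both genotypes. Its change was 1.87 ± 0.10 (adjusted p = 3.89e-08), or at least 3.27-fold. *Ifit3* gave 46.4, 66.2, 105, 68.9 and 79.6 in RasGRP4-null cells, against 71.3, 67.8, 65.7, 82.9 and 64.8 in WT cells. The probe set of *Ifit3*, the only one on the array that lists it, was above background on all 10 arrays, and its LPS values lay on both sides of the untreated WT value. Its estimate was 0.29 ± 0.17 (adjusted p = 0.142). Without the untreated WT array it was 0.60 and passed the test, without the WT array at 24 h it was 0.38 and passed, and without the untreated RasGRP4-null array it was −0.021. *Ifit3* held 2 ISRE cores as *Ifit1* did, at the windows shown above.

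The direct effectors act on the virus or its RNA, and all 8 rose, although *Ifitm3* and *Samd9l* were lower on GAPDH-normalized values. On that scale *Rsad2*, *Isg20* and *Adar* did not pass. *Mx1*, a dynamin-like GTPase that is known to be defective in most inbred mouse strains including C57BL/6, had the highest estimate. At 0, 12, 24, 36 and 48 h *Mx1* gave 14.2, 266, 172, 145 and 114 in RasGRP4-null cells, against 23.8, 197, 151, 138 and 108 in WT cells. Untreated cells were below background in both genotypes and the peak was at 12 h. Its change was 2.31 ± 0.14 (adjusted p = 1.12e-07), or at least 4.48-fold, which does not settle its order against *Cmpk2*. *Ifitm3*, a membrane protein that holds enveloped viruses in endosomes, changed least over the 4 times. In the same order *Ifitm3* gave 449, 1167, 632, 474 and 399 in RasGRP4-null cells, against 448, 1047, 536, 450.2 and 343 in WT cells. It was far above the untreated level at 12 h, near it at 36 h and below it at 48 h, in both genotypes alike. Its change over the 4 times was 0.35 ± 0.10 (adjusted p = 0.00896), but 1.27 ± 0.13 at 12 h (adjusted p = 9.54e-06) and −0.27 ± 0.13 at 48 h (adjusted p = 0.0916). The call over the 4 times was lost under quantile normalization (0.10) and without the untreated RasGRP4-null array (0.27), and the sign turned on GAPDH-normalized values (−0.69).

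*Isg20*, a 3′ to 5′ exonuclease, had the widest gap between the untreated arrays of the 36 genes on the log2(PLIER + 16) scale (0.84), though by the ratio of intensities *Oas1a* and *Oas2* lay wider apart. At 0, 12, 24, 36 and 48 h *Isg20* gave 605, 1259.8, 1074, 1149 and 1153 in RasGRP4-null cells, against 331, 1306, 869.7, 964 and 877 in WT cells. All 8 LPS arrays were above both untreated arrays. Its change was 1.23 ± 0.15 (adjusted p = 2.11e-05), which was lost on GAPDH-normalized values (0.18). *Cmpk2*, a mitochondrial nucleotide kinase, changed by 2.08 ± 0.10 and *Rsad2* (viperin), its neighbour on chromosome 12, by 1.03 ± 0.12. *Rsad2* intensities were 232 in RasGRP4-null and 209.7 in WT cells untreated, 737 in RasGRP4-null and 772 in WT cells at 12 h and 336 in RasGRP4-null and 339 in WT cells at 24 h. *Mx2*, a relative of *Mx1*, changed by 1.60 ± 0.14, or at least 3.48-fold (but 0.84 on the log2 scale of GAPDH-normalized values). *Adar*, an editor of adenosine in double-stranded RNA, changed by 1.15 ± 0.11 and *Samd9l* by 0.49 ± 0.10. The *Samd9l* call was lost under quantile normalization (0.21), and its sign turned on GAPDH-normalized values (−0.52).

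ISG15 is a ubiquitin-like protein that is joined to other proteins, and USP18 removes it and also damps the interferon receptor. All 8 genes of this group, which includes ubiquitin ligases and ADP-ribosyltransferases, rose. *Usp18* changed most. Over 0, 12, 24, 36 and 48 h *Usp18* gave 63.3, 1297, 1008, 974 and 918 in RasGRP4-null cells, against 68.7, 1377, 1012, 1098 and 978 in WT cells. Both genotypes were highest at 12 h, and the 8 LPS arrays were 14.2 to 20.5 times the untreated array of their genotype. Its change was 3.73 ± 0.10 (adjusted p = 2.03e-10). *Isg15* changed by 3.20 ± 0.12 and measured 1964 in RasGRP4-null and 1823 in WT cells at 12 h, against 159.9 in RasGRP4-null and 113 in WT cells untreated. *Parp9*, which works with the ligase DTX3L, changed least. In the same order *Parp9* gave 126, 469, 429.7, 441 and 425 in RasGRP4-null cells, against 103, 498, 475, 424 and 431 in WT cells. The 8 LPS arrays lay close together. Its change was 1.83 ± 0.11 (adjusted p = 1.11e-07). *Herc6*, which joins ISG15 to proteins in mice, changed by 2.67 ± 0.14, *Trim30a*, a ubiquitin ligase, by 2.54 ± 0.11, *Parp14*, an ADP-ribosyltransferase, by 2.17 ± 0.15, *Dtx3l* by 2.02 ± 0.12 and *Rnf213*, a large ubiquitin ligase, by 1.97 ± 0.13.

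The remaining 6 genes held both ends of the range. *Ifi44* had the highest estimate of all 36 genes. Over 0, 12, 24, 36 and 48 h *Ifi44* gave 20.1, 754, 638, 679.9 and 849.7 in RasGRP4-null cells, against 18.0, 819, 578, 1048 and 1008 in WT cells. It was below background untreated and, unlike *Ifit1*, was higher at 48 h than at 12 h in both genotypes. Its change was 4.51 ± 0.14 (adjusted p = 5.55e-10), a rise of at least 22.6-fold, and its order against *Oasl1* is not settled by these bounds. *Epsti1*, a gene first described in breast epithelium beside stroma, fell. In the same order *Epsti1* gave 731, 461, 441, 435 and 429 in RasGRP4-null cells, against 669.6, 516, 471, 401 and 361 in WT cells. The untreated array was the brightest in each genotype. Its change was −0.66 ± 0.11 (adjusted p = 0.000291), and it was lower under every alternative that was run. The macrophage, neutrophil and erythroid marker sums and *Itgax* were lower on the LPS arrays too, as given above. Those of plasmacytoid DCs and plasma cells were higher. Whether any of these shifts bears on *Epsti1* was not tested. *Xaf1*, a pro-apoptotic factor, changed by 2.54 ± 0.10, *Rtp4* by 1.75 ± 0.12, *Ifi35* by 1.32 ± 0.10 and *Sp100*, a component of nuclear bodies, by 0.86 ± 0.10. The sign of *Sp100* turned on GAPDH-normalized values (−0.19), where neither it nor *Ifi35* (0.31) passed.

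**Figure D2:**
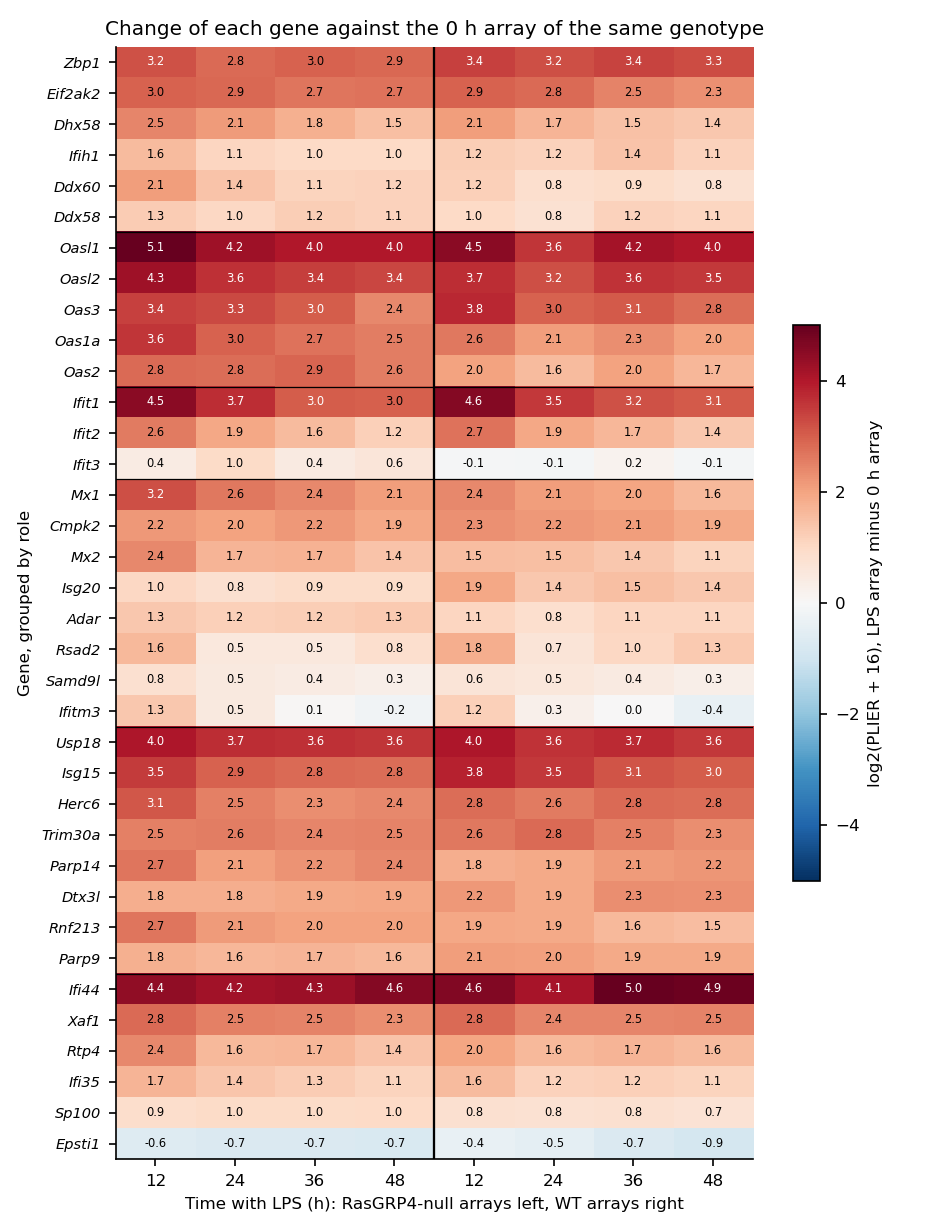
The log2(PLIER + 16) value of each LPS array minus the 0 h array of the same genotype, for the 36 genes (rows, grouped by role and ordered by LPS change within a role) at 12, 24, 36 and 48 h (columns, RasGRP4-null left and WT right). The colour scale runs from −5 to 5. *Ifi44*, *Oasl1*, *Usp18*, *Oasl2* and *Ifit1* are dark red at all times, *Ifitm3* fades from 12 to 48 h, and *Epsti1* is blue throughout.

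The genes that lead to and from interferon were read from a list of 30 ligands, receptors, kinases, adaptors, factors and inhibitors. Of the 24 that were tested, 15 were higher with LPS, 3 were lower and 6 did not pass, where 48.2% of all genes were higher and 21.5% were lower. All 5 transcription factors of the list rose (of which *Irf3* was lower on GAPDH-normalized values), with *Stat2* at 2.29 ± 0.11, *Irf7* at 2.06 ± 0.10, *Irf9* at 1.52 ± 0.12, *Irf1* at 1.01 ± 0.11 and *Irf3* at 0.58 ± 0.12. The feedback inhibitors *Socs1* (2.59 ± 0.12) and *Socs3* (1.13 ± 0.12) rose too. Of the receptor chains *Ifnar1* rose (0.59 ± 0.10, but lower on GAPDH-normalized values), *Ifnar2* (−0.52 ± 0.11) and *Ifngr1* (−1.32 ± 0.10) fell, and *Ifngr2* did not pass. *Ticam1*, the TRIF adaptor gene, rose by 1.38. The counts of this list depended on the scaling. On GAPDH-normalized values 6 of the 24 were higher (*Stat2*, *Irf7*, *Irf9*, *Ticam1*, *Socs1* and *Ifng*) and 11 were lower, among them *Ifnar1* (−0.44) and *Irf3* (−0.41), whereas *Irf1* (−0.02) and *Socs3* (0.18) did not pass, where 8.55% of all genes were higher and 69.1% were lower. Under quantile normalization 15 were higher and 3 were lower, as before.

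Of the ligands, *Ifnb1* was below background on all 10 arrays, at 7.32 to 11.3 in RasGRP4-null cells and 5.79 to 11.2 in WT cells. The earliest LPS array was that at 12 h. *Ifna5* was higher with LPS in limma (0.61 ± 0.12, adjusted p = 0.000852), although it was −0.20 on GAPDH-normalized values. *Ifna4* was lower (−0.53 ± 0.22, adjusted p = 0.04996), at −1.53 on GAPDH-normalized values. *Ifnl2* did not pass (0.26 ± 0.13, adjusted p = 0.104), but was lower on GAPDH-normalized values (−0.70). *Ifna4* and *Ifnl2* were above background on all 10 arrays. *Ifna4* was 103, 133, 118, 98.0 and 89.3 in RasGRP4-null cells over the 5 times, against 238, 123, 149.6, 86.6 and 63.2 in WT cells, and *Ifnl2* was 75.1 to 124 in RasGRP4-null and 93.4 to 135 in WT cells. *Ifng*, the ligand of type II interferon signalling, was 48.7, 254, 127, 82.3 and 72.0 at 0, 12, 24, 36 and 48 h in RasGRP4-null cells, against 33.3, 548, 261, 101 and 69.5 in WT cells. It peaked at 12 h in both genotypes, and RasGRP4-null cells had 0.464 times the WT intensity at 12 h and 0.487 times at 24 h. Its genotype difference over the 5 times was −0.37 ± 0.19 (adjusted p = 0.607) and did not pass. During LPS alone the difference was −0.55 ± 0.17 (adjusted p = 0.227) and the interaction was −0.95 ± 0.38 (adjusted p = 0.578), neither of which passed. Its LPS change was 1.54 ± 0.23 (adjusted p = 0.000134), and it was lower late than early, at −1.53 ± 0.21 (adjusted p = 0.000521).

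The second comparison asked how the levels went on during LPS. Of the 36 genes, 13 were lower at 36 and 48 h than at 12 and 24 h, 0 were higher and 23 did not pass, against 9.87% lower and 16.7% higher among all genes tested (12.5% lower and 13.9% higher under quantile normalization). The 13 were *Ifit1*, *Ifitm3*, *Ifit2*, *Dhx58*, *Mx1*, *Oas3*, *Isg15*, *Oas1a*, *Ddx60*, *Mx2*, *Rnf213*, *Eif2ak2* and *Ifi35*. At an unadjusted p under 0.05, 19 of the 36 differed, where 37.5% of all genes did. The change was largest for *Ifit1* (−1.02 ± 0.09, adjusted p = 8.64e-05), *Ifitm3* (−0.93 ± 0.09, adjusted p = 0.000108) and *Ifit2* (−0.83 ± 0.09, adjusted p = 0.000149). For 9 genes all 4 late arrays were below all 4 early arrays, and 8 of these were among the 13. The other was *Epsti1*. No share of all genes is given beside this separation, so it is not read as a trait of these genes. Leaving out 1 RasGRP4-null array at 12, 24, 36 or 48 h moved the count of 13 to 7 or 8. The same held for the WT arrays at 24, 36 or 48 h. The 7 genes *Ifit1*, *Ifit2*, *Ifitm3*, *Dhx58*, *Mx1*, *Oas3* and *Isg15* were lower whichever of the 10 arrays was left out, and were the same 7 that passed on GAPDH-normalized values.

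Other genes with a large LPS change did not pass this test. *Zbp1* differed by −0.04 ± 0.10 between the late and the early times (adjusted p = 0.843) and *Usp18* by −0.23 ± 0.09 (adjusted p = 0.0801). *Ifi44* had the highest estimate of the 36, 0.35 ± 0.13 (adjusted p = 0.062), and passed as higher in 3 alternatives, under quantile normalization, with a pseudocount of 64 and without the RasGRP4-null array at 36 h. *Parp14* passed as higher without the RasGRP4-null array at 12 h. By single times, 34 genes were higher at 12 h than at 0 h, where 41.9% of all genes were, and 32 at 48 h, where 43.7% were. *Ifitm3* and *Samd9l* were the genes that passed at 12 h and no longer at 48 h. The peak fell at 12 h for 28 genes in RasGRP4-null cells and for 24 in WT cells, where 27.0% (RasGRP4-null) and 24.8% (WT) of all genes tested peaked. In WT cells 9 genes peaked at 36 h, against 2 in RasGRP4-null cells, where 13.5% (RasGRP4-null) and 15.001% (WT) of all genes did, a difference that was not tested and that rests on 1 array of each genotype.

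**Figure D3:**
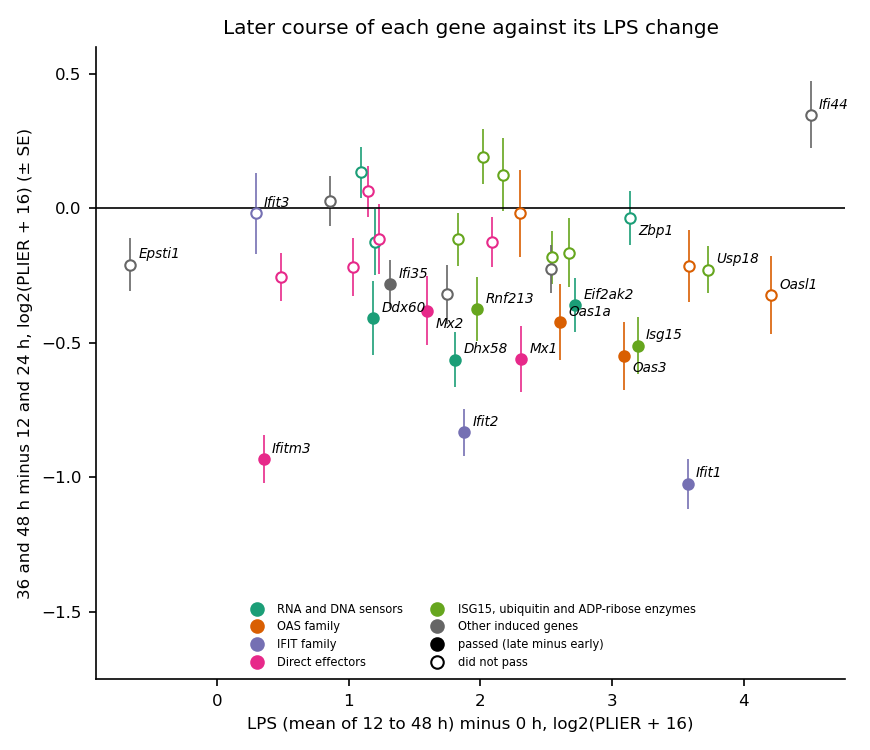
The mean of 36 and 48 h minus the mean of 12 and 24 h (y axis, ± SE) against the LPS change (x axis) for the 36 genes, both as log2(PLIER + 16), with filled points for genes that passed the late against early test. The filled points all lie below 0, with *Ifit1*, *Ifitm3* and *Ifit2* lowest, and *Ifi44* lies highest at 0.35.

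**Figure D4:**
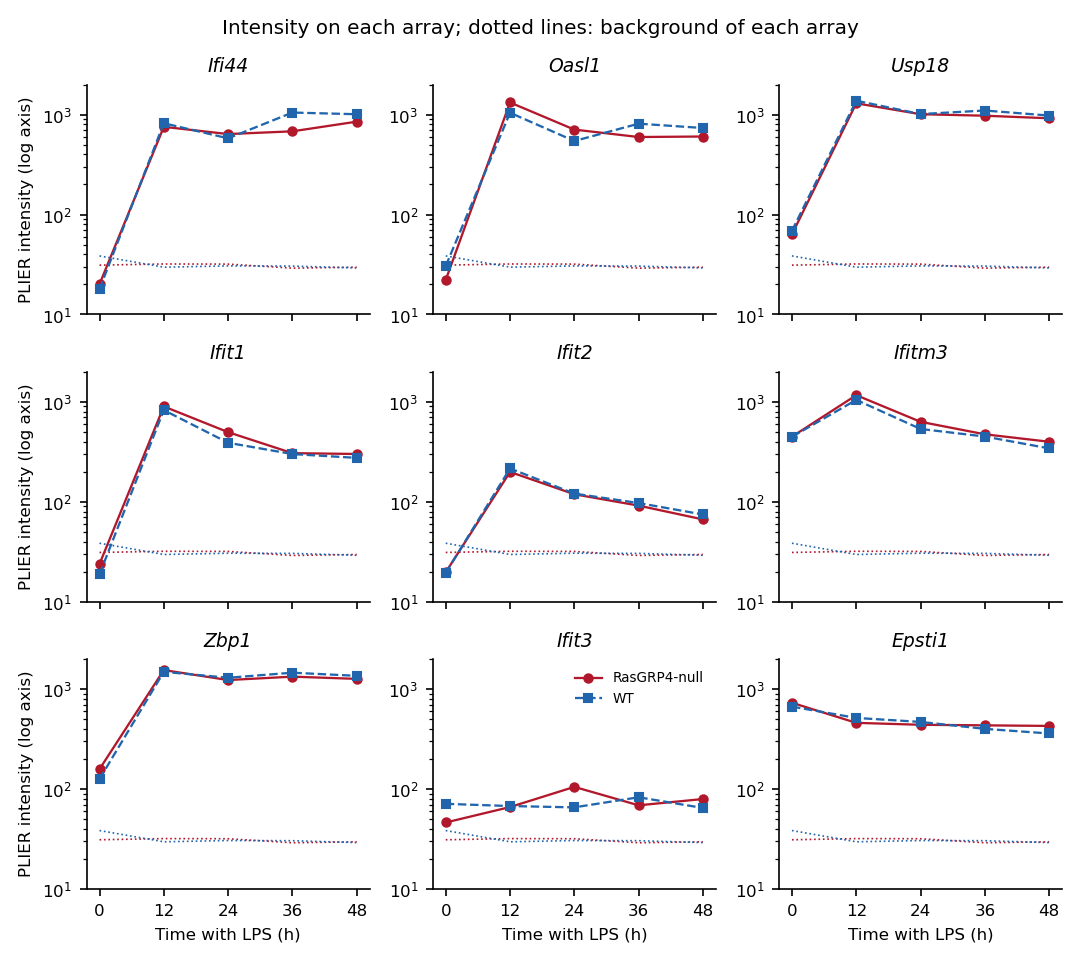
PLIER intensity (log axis) on each array against time with LPS for 9 genes, RasGRP4-null as red circles and WT as blue squares, with the background of each array dotted. *Ifit1*, *Ifit2* and *Ifitm3* decline after 12 h, *Zbp1*, *Usp18* and *Ifi44* stay high to 48 h, *Ifit3* stays between 46.4 and 105 and *Epsti1* declines.

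The last question was whether the response depended on RasGRP4. None of the 36 genes differed between RasGRP4-null and WT cells over the 5 times, where 0.179% of all genes tested did in limma. At an unadjusted p under 0.05, where 9.40% of all genes lay, there was 1, *Isg20*, whose difference was 0.35 ± 0.12 (95% interval 0.09 to 0.60, adjusted p = 0.367). A paired t-test on the differences at the 5 times gave 0 after Benjamini-Hochberg adjustment and 4 before it (*Ddx58*, *Ifit1*, *Ifitm3* and *Usp18*), where 7.59% of all genes lay. The study names this test in its general statistics, and describes a fold rule for its arrays. The 5 times are not replicates of a condition. During LPS alone none of the 36 passed either, where 0.224% of all genes did, and none reached an unadjusted p under 0.05, where 9.61% of all genes did. The estimates ran from −0.21 (*Ifi44*) to 0.22 (*Isg20*), and no 95% interval of the 36 went below −0.48 or above 0.47 on the log2 scale. The smallest p-values belonged to *Isg20* (0.22 ± 0.10, interval −0.01 to 0.45, adjusted p = 0.541), *Oas2* (0.21 ± 0.10, interval −0.01 to 0.43, adjusted p = 0.554) and *Ddx58* (0.19 ± 0.09, interval −0.02 to 0.40, adjusted p = 0.58). Of the 36 genes, 10 lay on the same side of WT at all 4 LPS times, 6 of them higher in RasGRP4-null cells. Among all genes tested 17.5% lay on one side at all 4 times, and 10.8% were higher in RasGRP4-null cells. RasGRP4-null cells lay above WT for 18 of the 36 untreated and, in order of time with LPS, for 23, 19, 16 and 18 of the 36 after it. Among all genes tested the share above WT was 47.0% untreated and, in the same order, 49.9%, 65.7%, 49.0% and 44.6%. The median difference of the 36 stayed between −0.03 and 0.09 at these times, and that of all genes between −0.03 and 0.10.

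The size of the LPS change was compared between the genotypes as an interaction. None of the 36 passed, where 0.188% of all genes tested did, and 4 had an unadjusted p under 0.05, where 7.51% of all genes did. The smallest p belonged to *Oas2*, whose estimate (LPS change in RasGRP4-null minus that in WT cells) was 0.96 ± 0.22 (interval 0.47 to 1.45, adjusted p = 0.198). The untreated arrays were 25.1 in RasGRP4-null and 53.0 in WT cells, the first of which was below background and so gives no exact difference, and the LPS arrays gave 229 to 296 in RasGRP4-null cells and 193 to 265 in WT cells. *Oas1a* (0.68 ± 0.25, interval 0.14 to 1.22, adjusted p = 0.493) had the same pattern, with untreated values of 6.87 in RasGRP4-null and 16.3 in WT cells that were both below background. *Isg20* ran the other way (−0.62 ± 0.23, interval −1.13 to −0.11, adjusted p = 0.513), with untreated values of 605 in RasGRP4-null and 331 in WT cells. Each untreated value is 1 array, so that no test can tell a genotype from an array at 0 h. A p above the threshold does not show that the genotypes respond alike. The intervals rest on the scatter among these arrays. With 1 array per condition they do not cover variation between mice or preparations, so they do not bound the difference between the genotypes.

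**Figure D5:**
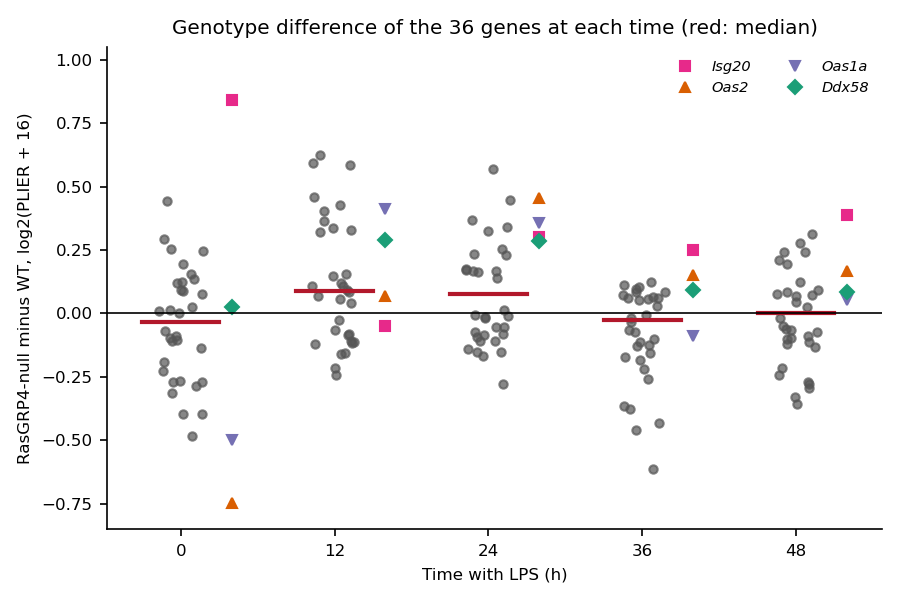
RasGRP4-null minus WT as log2(PLIER + 16) for each of the 36 genes at 0, 12, 24, 36 and 48 h (points), with the median of the 36 at each time in red and 4 genes marked by symbol. The medians stay within 0.09 of 0, and *Isg20* (0.84) and *Oas2* (−0.75) lie farthest out at 0 h.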

How the data were processed

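CD117+ splenocytes were profiled on 10 MoGene-2.0-st arrays, 1 for each genotype and time. The authors made the deposited PLIER intensities (linear, per probe set) with Affymetrix Expression Console, and a second deposited table holds the same intensities multiplied by a GAPDH factor per array. Per the file headers, the intensities come from perfect-match probes with background correction and sketch normalization between arrays. The genome build is not given in the sources used here. A value table with the same intensities rounded was not used, nor were 10 further per-sample columns (the authors' products of intensity and factor, which were recomputed). Arrays were grouped by title. The titles give 36 h where the design text names another time, and on 3 RasGRP4-null arrays the source name states an earlier time, which was not used.

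Of 41345 probe sets, 26660 list 1 symbol, 3066 several and 11619 none. For each symbol the brightest probe set with that symbol alone was kept, and genes that reached an intensity of 50 on 2 or more arrays were tested on log2(PLIER + 16) with limma 3.58.1 (R 4.3.3) with Benjamini-Hochberg adjustment over 11179 genes, two-sided, threshold 0.05. Genotype and time were additive terms (4 residual degrees of freedom). Genotype during LPS and the interaction came from a fit with a genotype term at 0 h and another with LPS (3 residual degrees of freedom). The fits were tested on simulated data. The number of arrays limits the precision. Values of all 10 arrays were given, within each role, for the genes with the largest and the smallest LPS change, for those that did not pass, and for the 3 with the smallest p in the other comparisons. *Kit*, *Rasgrp4*, *Ifng* and other genes of the fixed lists were given as checks. The pathway list leaves out 1 gene, which is not reported here and is in none of its counts. The genes and lists were chosen with earlier results of these data known. Alternatives were GAPDH-normalized values, quantile normalization, pseudocounts of 1 and 64, no filter, a filter at 100, an intensity trend in the variance, every probe set that lists 1 symbol, the 8 LPS arrays alone, the methods' fold rule at 24 h (*Gapdh* percentage and fold), a paired t-test of the genotype difference (named in the study's general statistics) and leaving out each array.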

Additional observations from a re-analysis of the deposited data

How the results depend on the processing

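The count of 34 genes higher after LPS was 24 on GAPDH-normalized values, 32 under quantile normalization and 33 to 35 when 1 array was left out. Under the methods' fold rule at 24 h it was 8. That rule was applied to GAPDH-normalized values and had to be met in both genotypes. It asks for over 1% of *Gapdh* and over 3.6 times the untreated value, and no share of all genes is given for it. The count lower after LPS was 1, but 4 on GAPDH-normalized values. The estimate turned negative on GAPDH-normalized values for *Ifit3* (−0.61), *Ifitm3* (−0.69), *Samd9l* (−0.52) and *Sp100* (−0.19), and for *Ifit3*, whose estimate ran from −0.021 to 0.60 when 1 array was left out, also without the untreated RasGRP4-null array. Among all genes, 69.2% of the calls after LPS were higher, against 11.0% on GAPDH-normalized values and 53.9% under quantile normalization, where the median of all genes was 0.26, −0.70 and 0.06. The count of 13 genes lower late than early was 7 on GAPDH-normalized values, 8 with a pseudocount of 1, 8 without the filter and 7 to 13 when 1 array was left out. The count higher late than early was 0, but 1 under quantile normalization and 1 with a pseudocount of 64 (*Ifi44* in both), and 0 to 1 when 1 array was left out. Of the single values after LPS, 629 kept their direction and side of the threshold, 10 no longer passed, 2 newly passed and 5 turned sign. Of the late against early values, 176 still passed and 57 did not. The counts of genotype and interaction calls among the 36 genes were 0 in every alternative that was run. The 3 genotype differences during LPS (57 values) and the 3 interactions (48 values) passed under none. Without an untreated array the interaction could not be fitted, and a filter at 100 left out 2 of the 36 genes. A replicate number could not serve as a block because each condition has 1 array, whereas time matched the genotypes in every fit. Genes near the background at 0 h have a change that the background limits.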
